A study of Mus musculus with 12 samples.

Results

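Notch signalling and the Id proteins both hold back the maturation of the oligodendrocyte lineage, and 10 of their genes were followed here in OPC and neuron libraries of mice in which the L-type calcium channels Cav1.2 and Cav1.3 were targeted in OPCs. The genes were taken by name: the ligands Jag1 and Dll1, the receptors Notch1, Notch2 and Notch3, the target genes Hes1, Hes5 and Hey1, and the Id genes Id2 and Id4. They are 10 of the 30165 genes counted in the OPC table and 10 of the 17918 genes of the neuron table, and all 10 passed the filter on low counts in both.

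Cells from the cortex were sequenced as 12 RNA-seq libraries, 3 per group, from OPCs and neurons of mice labelled ctl (control) or dKO (double knockout), and each library pooled 2 mice of 1 group. The dKO mice carried NG2-CreERT2 with floxed Cacna1c and Cacna1d and received tamoxifen on consecutive days. Recombination thus took place in cells with an active NG2 (Cspg4) promoter at that time, which besides OPCs can be pericytes. Cells formed later from recombined cells, such as oligodendrocytes from OPCs, carry the deletion too, and their part in the libraries was not measured. The ctl mice have the genotype WT in the labels, and whether they carried Cre or floxed alleles, whether they received tamoxifen and the age at which the sequenced mice were taken are not given in the sources used here. OPCs were captured on magnetic beads against CD140, NG2 and O4, and neurons were what passed a column after ACSA-2, CD31, CD11b and O4 beads had held back glia, endothelial cells and oligodendrocyte lineage cells.

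A Notch receptor is cut by ADAM10 and gamma-secretase when a ligand on a neighbouring cell pulls on it, and its intracellular part then joins RBPJ in the nucleus to switch on Hes and Hey genes. The HES and HEY proteins are bHLH repressors that keep precursor cells from differentiating, and in OPCs Jagged1 acting on Notch1 is known to delay the formation of oligodendrocytes. ID proteins have a helix-loop-helix but no DNA-binding region, so they capture bHLH partners such as OLIG and E proteins, and they are induced by BMPs through SMAD proteins.

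The regulatory sequence is shown for Hes5 and Id2, the genes with the highest fold changes in OPCs, since Notch and BMP signals reach such genes through short motifs near the start of transcription. The sequences are the 250 bases before the start in RefSeq on GRCm38.p6, written 5′ to 3′ on the strand of the gene. Capitals mark the motifs TGGGAA (the core bound by RBPJ) and GGCGCC (a GC box bound by SMAD proteins) on either strand, so that TGGGAA can also appear as TTCCCA.
Hes5 (chr4:154960673-154960922, plus strand): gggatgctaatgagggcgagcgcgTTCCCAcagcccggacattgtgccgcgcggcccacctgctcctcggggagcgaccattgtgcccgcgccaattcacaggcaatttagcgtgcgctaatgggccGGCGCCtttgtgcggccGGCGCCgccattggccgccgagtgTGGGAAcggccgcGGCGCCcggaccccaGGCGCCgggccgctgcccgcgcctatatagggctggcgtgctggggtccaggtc
Id2 (chr12:25096093-25096342, minus strand): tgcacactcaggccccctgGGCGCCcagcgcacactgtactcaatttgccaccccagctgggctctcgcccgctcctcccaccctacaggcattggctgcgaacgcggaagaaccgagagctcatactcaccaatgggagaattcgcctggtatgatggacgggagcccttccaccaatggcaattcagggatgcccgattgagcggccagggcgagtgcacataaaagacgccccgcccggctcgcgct
The Hes5 stretch held TGGGAA at 226 and 82 bases before the start and GGCGCC at 123, 106, 69 and 54 bases, and its GC content was 71.6%. The Id2 stretch held GGCGCC once, 231 bases before the start, and no TGGGAA, with a GC content of 62.8%. Promoters were searched for 8 of the 10 genes, all but Hes1 and Hey1. Over their 9 promoters (Dll1 has 2), TGGGAA was in 2 (Hes5 and Id4) and GGCGCC in 4 (Hes5, Id2, Id4 and one of Dll1), against 21.6% and 9.59% of all 32851 promoters. Of the sites read by HES and HEY proteins themselves, the N-box CACNAG was in 4 (Notch1, Notch2, Notch3 and Id4) and the E-box CACGTG in 0, against 36.7% and 6.02% of all promoters. These are matches of letters, and the libraries hold no measurement of binding. GGCGCC consists of G and C alone, and the 4 promoters that held it had a GC content of 62.8% to 75.6%. The comparison with all promoters was not matched for GC content, and the part of base composition was not tested.

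Total counts were 14935963 to 19812274 per OPC library and 15052892 to 16344601 per neuron library. The targeted gene Cacna1c, which encodes Cav1.2, had normalized counts of 373, 411 and 439 in the ctl OPC libraries and 252, 337 and 312 in the dKO libraries, with no overlap (log2 fold change -0.44, standard error 0.15, edgeR adjusted p = 0.349). Cacna1d, which encodes Cav1.3, had 251, 191 and 255 in ctl and 92.8, 153 and 232 in dKO OPC libraries, and the groups overlapped (log2 fold change -0.55, adjusted p = 0.531). Its log2 fold change was -0.27 without dKO replicate 1 and -0.93 (unadjusted p = 0.0091) without dKO replicate 3. These counts cover whole genes and do not measure the floxed exons on their own. The labelled cell types were checked against 10 markers each. In the OPC libraries the summed level of OPC markers, in CPM (counts scaled to library size), was 496 to 1656 against 49476 to 85811 for oligodendrocyte markers, and in the neuron libraries neuron markers summed to 738 to 1663 CPM against 7603 to 17957 for endothelial markers. Markers of other cells thus exceeded those of the labelled cell type in every library, and "OPC" and "neuron" stand here for the fraction that was sequenced. In such bulk libraries, fewer cells of a type and less RNA per cell cannot be told apart.

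The level of each gene per unit of length was compared first, on the FPKM scale deposited for OPCs and the TPM scale deposited for neurons. In the ctl OPC libraries, Hes1 had the highest level, with 30.6 ± 8.26 FPKM (SD, n = 3), followed by Id4 with 19.8 ± 3.96, Id2 with 15.6 ± 3.23 and Notch3 with 14 ± 2.09. Hey1 came next with 11.6 ± 1.57 FPKM, then Dll1 with 8.77 ± 1.83, Notch2 with 8.32 ± 2.69, Jag1 with 8.0 ± 1.43 and Notch1 with 6.55 ± 0.92. Hes5 stood far under the others with 0.84 ± 0.61 FPKM. Neighbours in this order overlapped in their ctl libraries, except Hes1 over Id4, by a lowest value of 22.83 against a highest of 22.77 FPKM, and Notch1 over Hes5.

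In the ctl neuron libraries the order was different, and Id2 led with 199 ± 42.4 TPM (SD, n = 3). Hey1 had 93.8 ± 22.7 TPM, Hes1 64.4 ± 8.11, Id4 45.8 ± 17.5 and Jag1 24.4 ± 2.76. Notch1 had 13.4 ± 4.19 TPM and Dll1 7.28 ± 1.16, while Hes5 with 5.57 ± 3.59, Notch2 with 4.35 ± 0.90 and Notch3 with 1.46 ± 0.94 were lowest. Here 5 neighbouring pairs did not overlap in ctl, namely Id2 over Hey1, Id4 over Jag1, Jag1 over Notch1, Notch1 over Dll1 and Notch2 over Notch3. For one gene in both cell types, CPM values of the ctl libraries were set side by side. Notch3 had 114 ± 17.4 CPM in OPC and 6.82 ± 4.14 CPM in neuron libraries, and Notch2 90.5 ± 30.1 and 27.2 ± 3.99 CPM. Id2 had 38.3 ± 8.07 CPM in OPC and 126 ± 22.1 CPM in neuron libraries, and Hey1 38.1 ± 5.26 and 111 ± 20.8 CPM. The tables were counted in different ways, on genes and on transcripts, so no test of a difference between the cell types was run.

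**Figure D1:**
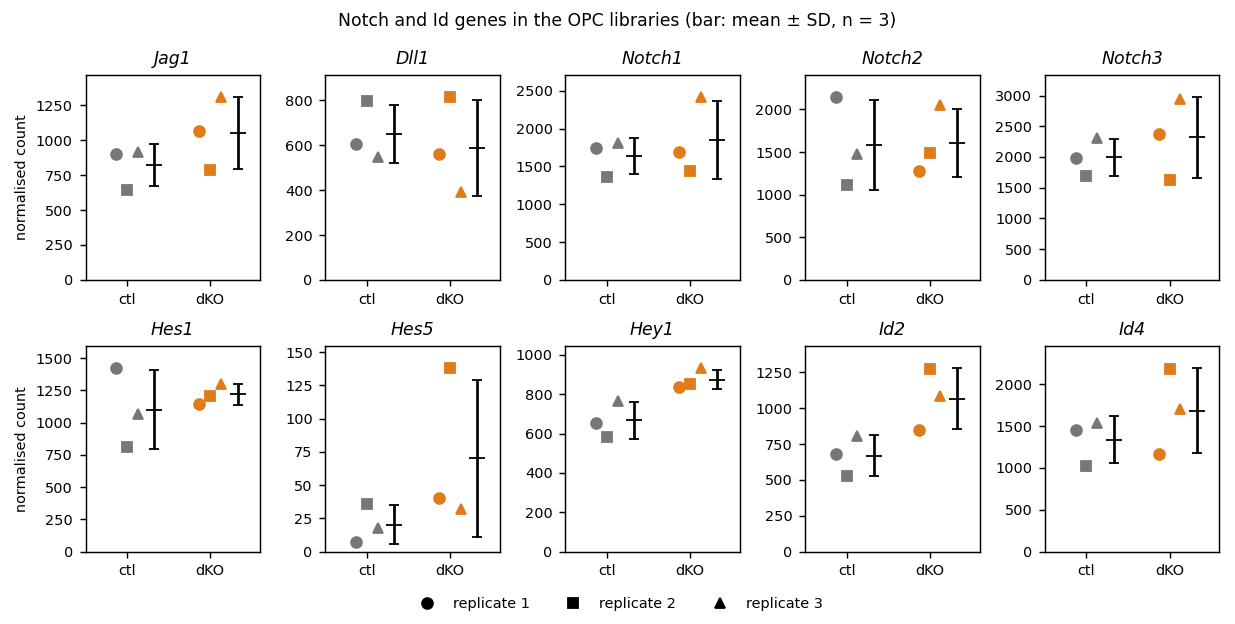
Normalized counts of the Notch and Id genes in the OPC libraries, one panel per gene, with a linear y axis from 0. Points are the 3 ctl and 3 dKO libraries, and the horizontal bar with its error bar is the mean ± SD. Hey1 and Id2 are the genes whose groups do not overlap, and Hes5 has one dKO library at 138 far over the rest.

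In OPCs, 9 of the 10 genes had a log2 fold change over 0 (dKO over ctl), with Dll1 the exception, against 50.8% of all 17364 genes tested. Without dKO replicate 3 it was 7 of the 10. The median of the 10 genes was 0.27 against 0.01 over all genes. No gene passed an adjusted p of 0.05 in edgeR's quasi-likelihood test (0 of 10, with 1 gene or 0.00576% of all genes tested) or in DESeq2 (0 of 10, with 1.69% of all genes). An unadjusted p under 0.05 was reached by 3 genes, Id2, Hey1 and Hes5, against 11.5% of all genes, and all 3 were higher in dKO, against 6.27% of all genes higher and 5.27% lower. DESeq2 also had 3 of the 10 at an unadjusted p under 0.05, against 11.9% of all genes. The groups did not overlap for 2 genes, Id2 and Hey1, against 17% of all genes tested. Without dKO replicate 2, the groups did not overlap for 4 of the 10 and for 30.5% of all genes. An exact permutation test of 3 libraries against 3 cannot go below 0.1. Replicates are separate pools of mice, as the labels number them.

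The ligands showed no common direction. Jag1, a ligand on neighbouring cells and blood vessels, had normalized counts of 903, 645 and 914 in the ctl OPC libraries and 1063, 786 and 1307 in the dKO libraries (log2 fold change 0.36, standard error 0.20, adjusted p = 0.536). Its lowest dKO library lay between the ctl libraries, so the groups overlapped. That library, dKO replicate 2, was also the lowest of the 6 for summed endothelial markers, with 1115 CPM against 1353 to 3039 in the other 5, and the part of these cells in the Jag1 values was not tested. Without it the log2 fold change of Jag1 was 0.53 (unadjusted p = 0.0156), while it was 0.16 (unadjusted p = 0.438) without dKO replicate 3 and 0.21 (unadjusted p = 0.336) without ctl replicate 2. Dll1, the delta-type ligand of neural progenitors, had 604, 798 and 549 in ctl and 559, 818 and 390.5 in dKO (log2 fold change -0.14, standard error 0.26, adjusted p = 0.871). Its highest and its lowest library were both dKO.

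The groups overlapped for all 3 receptors. Notch1, the receptor through which Jagged1 acts on OPCs, had 1742, 1366 and 1816 in ctl and 1694, 1438 and 2424 in dKO OPC libraries (log2 fold change 0.17, standard error 0.20, adjusted p = 0.775). Notch2, a receptor shared by several glial types, had 2151, 1115 and 1479 in ctl and 1276, 1485 and 2056 in dKO (log2 fold change 0.02, standard error 0.25, adjusted p = 0.985). Both groups of Notch2 spanned nearly the same range. Notch3, the receptor of mural cells of blood vessels, had 1981, 1697 and 2306 in ctl and 2379, 1625 and 2952 in dKO (log2 fold change 0.22, standard error 0.21, adjusted p = 0.729). The library with the least Notch3, dKO replicate 2, also had the lowest summed mural markers of the 6, 773 CPM against 906 to 1586, and their part in these values was not tested. Without it Notch3 had a log2 fold change of 0.42 (unadjusted p = 0.0323), and without dKO replicate 3 one of -0.0036 (unadjusted p = 0.986).

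The target genes Hes1, Hey1 and Hes5 all had log2 fold changes over 0, and no test compared them with one another. Hes1, the repressor that answers Notch in most cell types, had 1422, 811 and 1066 in ctl and 1144, 1209 and 1301 in dKO OPC libraries (log2 fold change 0.15, standard error 0.19, adjusted p = 0.803). The dKO libraries lay close together within the wider ctl range. The value of Hes1 was 0.38 (unadjusted p = 0.0396) without ctl replicate 1 and -0.031 without ctl replicate 2. Hey1, a target strongly expressed in vessels, had 653, 582 and 765 in ctl and 839, 853 and 932 in dKO. In the OPC table it spans chromosome 3 from 8728419 to 8732316 on the minus strand (mm39 per the processing notes). Every dKO library was over every ctl library, by a fold change of 1.31 (log2 0.39, standard error 0.13, unadjusted p = 0.0138, adjusted p = 0.327). With each library left out in turn, the log2 fold change of Hey1 stayed between 0.30 and 0.49 and its unadjusted p was at most 0.0482.

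Hes5, the Notch target most tied to neural stem cells and glial precursors, had by far the lowest counts of the 10 genes in the OPC libraries. It lies on chromosome 4 from 155045380 to 155046828 in the OPC table. It had 8, 30 and 17 raw counts in ctl and 41, 152 and 30 in dKO, which are normalized counts of 7.0, 35.7 and 17.8 and of 40.1, 138 and 32.1. The log2 fold change of 1.83 (standard error 0.71, unadjusted p = 0.0303, adjusted p = 0.387) was the highest of the 10 genes, yet the lowest dKO library was under the highest ctl library. The size rested on dKO replicate 2, without which it was 0.87 (unadjusted p = 0.175). The unadjusted p was also over 0.05 without ctl replicate 1 (0.0907) or ctl replicate 3 (0.0816). The same dKO library had the highest summed astrocyte markers, 5589 CPM against 1154 to 2959 in the other 5, and the highest OPC markers, 1656 CPM against 496 to 911, and their part in the Hes5 value was not tested.

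Id2, which sequesters bHLH factors and is known to oppose oligodendrocyte differentiation, gave the smallest p of the 10 genes. It lies on chromosome 12 from 25143798 to 25147139 in the OPC table. Its normalized counts were 681, 524 and 805 in ctl and 848, 1271 and 1084 in dKO OPC libraries. The groups did not overlap, although the lowest dKO library was only a little over the highest ctl library. The fold change was 1.59 (log2 0.67, standard error 0.19, unadjusted p = 0.00746, adjusted p = 0.310), and by DESeq2 the adjusted p was 0.0873. Leaving out each library in turn gave log2 fold changes of 0.52 to 0.81, each at an unadjusted p of at most 0.0252. Id4, an inhibitor of differentiation abundant in astrocytes and OPCs, had 1452, 1025 and 1542 in ctl and 1161, 2179 and 1708 in dKO (log2 fold change 0.33, standard error 0.24, adjusted p = 0.614). Its groups overlapped and the highest value was again dKO replicate 2, without which the log2 fold change was 0.098. Without dKO replicate 1, it was 0.54 (unadjusted p = 0.0285).

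**Figure D2:**
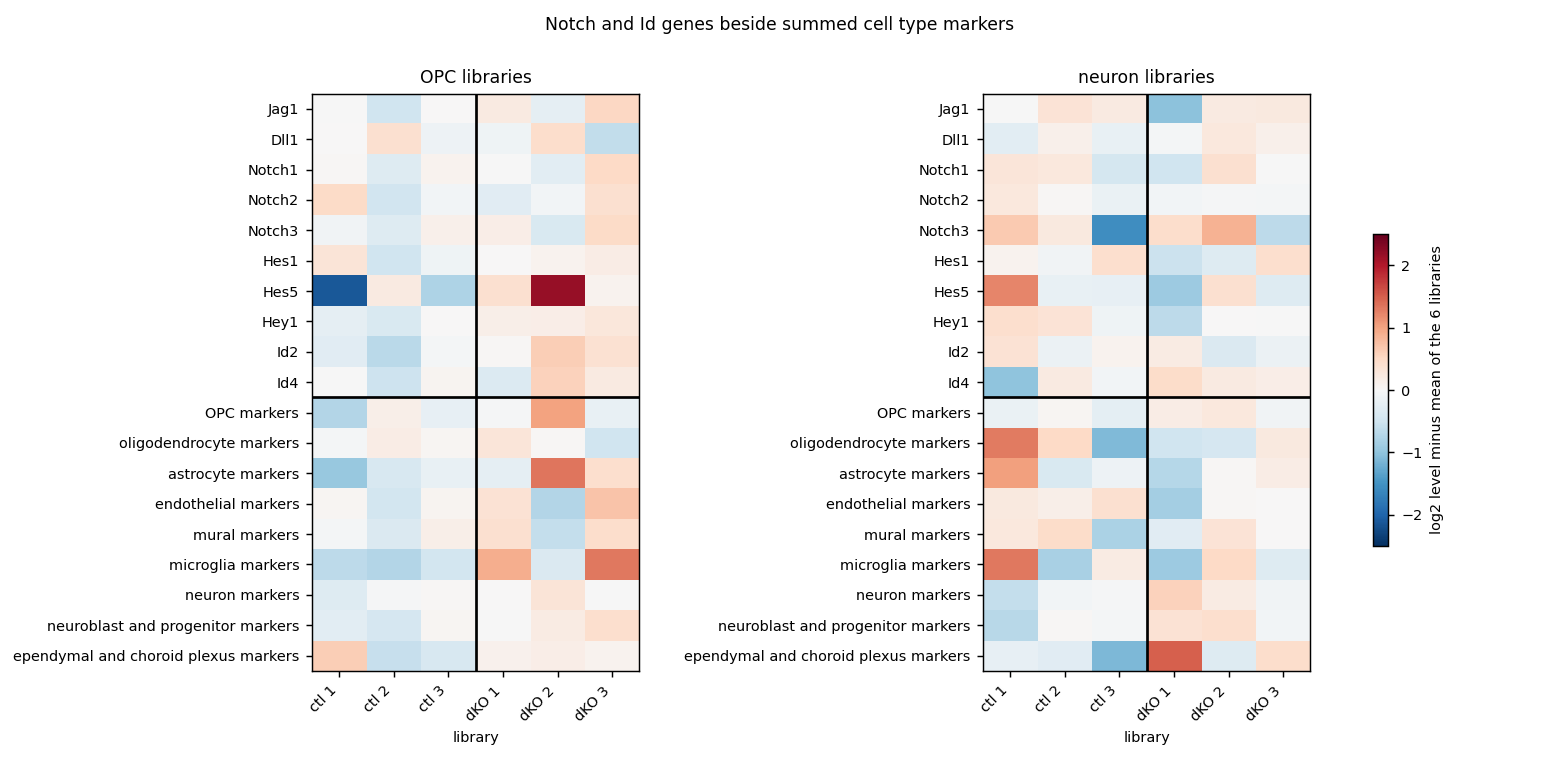
Each row is a Notch or Id gene (upper block) or the summed CPM of a list of cell type markers (lower block), and each column a library, in OPCs at left and neurons at right. Colour is the log2 level minus the mean of the 6 libraries, from blue (lower) to red (higher). In OPCs, dKO 2 is red for Hes5, Id2, Id4, OPC markers and astrocyte markers and blue for endothelial and mural markers, and in neurons dKO 1 is blue for Jag1, Hey1 and endothelial markers.

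Markers of astrocytes and microglia also differed between the groups of OPC libraries. Every other marker list had at most 2 markers at an unadjusted p under 0.05. Over all genes tested, 11.5% were at that threshold and 50.8% had a log2 fold change over 0. All 10 astrocyte markers had log2 fold changes over 0, 8 of them at an unadjusted p under 0.05, and their summed level was 1154 to 1959 CPM in ctl and 1899 to 5589 CPM in dKO. All 10 microglia markers had an unadjusted p under 0.05 and summed to 233 to 280 CPM in ctl and 302 to 961 CPM in dKO, with no overlap. Microglia, endothelial and mural markers were each highest in dKO replicate 3 (961, 3039 and 1586 CPM), which was also the highest library for Notch1, Notch3, Jag1 and Hey1 but not for Id2, Id4 or Hes5. All 10 endothelial markers (median log2 fold change 0.28) and 8 of 10 mural markers (median 0.39) had values over 0, with 0 at an unadjusted p under 0.05 in edgeR. Neuroblast and progenitor markers were over 0 for 8 of 9 genes (median 0.55, 2 at that threshold) and neuron markers for 9 of 10 (median 0.41, 1 at that threshold). Jag1, Hey1 and Notch3, which vessels express, had log2 fold changes of 0.36, 0.39 and 0.22. The OPC markers were all over 0 as well, 1 of 10 at an unadjusted p under 0.05. Of the 10 oligodendrocyte markers, 8 had log2 fold changes under 0 (median -0.42), 2 of the 10 markers at an unadjusted p under 0.05. Their summed level was 67104 to 79103 CPM in ctl and 85811, 71207 and 49476 CPM in dKO, so the groups overlapped. The part of these cells in the values of the Notch and Id genes was not tested.

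**Figure D3:**
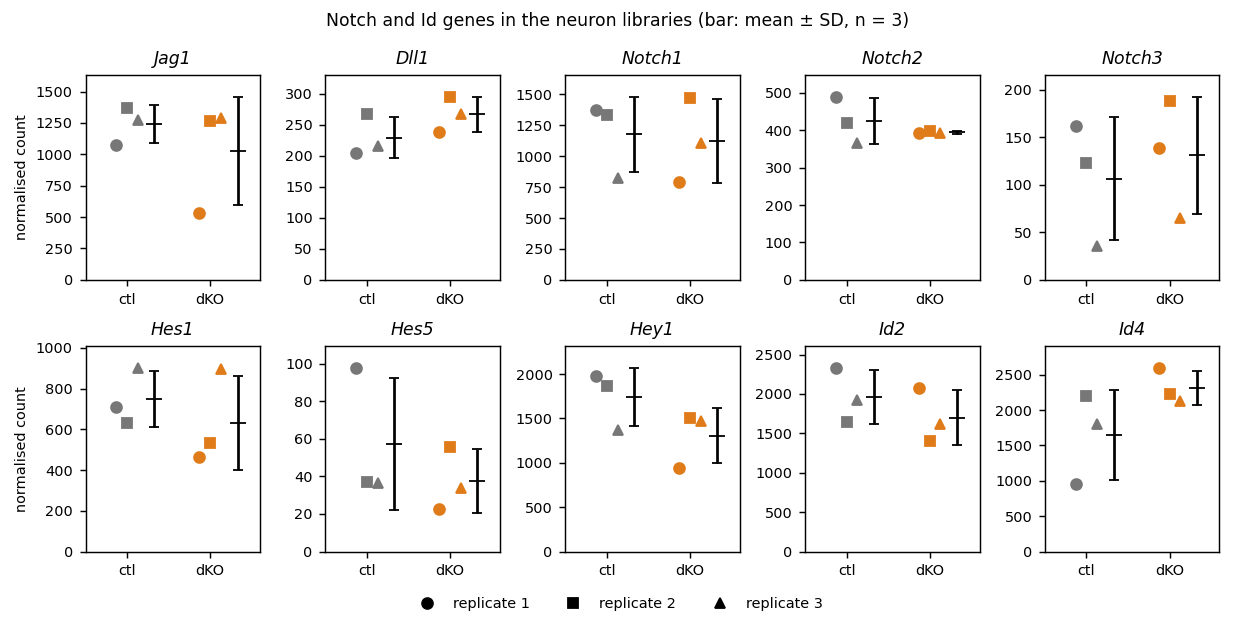
Normalized counts of the same genes in the neuron libraries, one panel per gene, with a linear y axis from 0. Points are the 3 ctl and 3 dKO libraries, and the bar with its error bar is the mean ± SD. The groups overlap for each of the 10 genes, and Jag1 and Hey1 each have their lowest point in a dKO library, at 530.0 and 946.

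In neurons, the same genes gave no call. At an adjusted p of 0.05, edgeR called 0 of the 10 genes and 0 genes (0%) of all 14352 tested, and DESeq2 called 0 of the 10 and 0.614% of all genes. At an unadjusted p under 0.05 there were 0 of 10 in both tools, against 9% of all genes in edgeR (4.96% higher and 4.04% lower) and 10.7% in DESeq2. The groups overlapped for all 10 genes, while they did not overlap for 15.3% of all genes tested. Of the 10 log2 fold changes, 3 were over 0 (Notch3, Dll1 and Id4) and 7 under 0, while 51.1% of all genes were over 0. Without ctl replicate 1, 6 of the 10 were over 0, and without ctl replicate 3, 2 of the 10. The median of the 10 genes was -0.16 against 0.01 over all genes. One gene each had an unadjusted p under 0.05 without ctl replicate 2 (Id4), without ctl replicate 3 (Hey1) or without dKO replicate 3 (Hes1). In each of these 3 settings the groups did not overlap for 2 of the 10 genes, against 25.8%, 23.9% and 25% of all genes.

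Jag1 had normalized counts of 1072, 1371 and 1274 in the ctl neuron libraries and 530.0, 1269 and 1288 in the dKO libraries (log2 fold change -0.27, standard error 0.31, adjusted p = 0.814). A single dKO library set its direction, and without dKO replicate 1 it was 0.045. Dll1 had 205, 267 and 215 in ctl and 238, 295 and 267 in dKO (log2 fold change 0.22, standard error 0.20, adjusted p = 0.767). Its reads fell on transcript NM_007865 for 74.2% and on the predicted XM_011246267 for 25.1%.

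The groups overlapped for the 3 receptors in neurons as well. Notch1 had 1371, 1335 and 824 in ctl and 794, 1467 and 1111 in dKO neuron libraries (log2 fold change -0.07, standard error 0.26, adjusted p = 0.960). Notch2 had 491, 419 and 366 in ctl and 392, 399.5 and 394 in dKO (log2 fold change -0.11, standard error 0.16, adjusted p = 0.872). The 3 dKO libraries of Notch2 lay close together inside the ctl range. Notch3 had 161, 123 and 35.4 in ctl and 139, 188 and 65.5 in dKO (log2 fold change 0.30, standard error 0.56, adjusted p = 0.900). The low ctl library was replicate 3, which also had the fewest mural markers, 642 CPM against 914 to 1530 in the other 5, and their part in it was not tested.

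Among the targets, Hey1 had the smallest p in neurons, with 1981, 1868 and 1369 in ctl and 946, 1502 and 1472 in dKO (log2 fold change -0.41, standard error 0.22, unadjusted p = 0.0921, adjusted p = 0.596). The groups overlapped through ctl replicate 3, without which the log2 fold change was -0.56 (unadjusted p = 0.0414), and it was -0.23 (unadjusted p = 0.220) without dKO replicate 1. Its main transcript NM_010423, with 94.1% of the reads, had a log2 fold change of -0.45. Hes1 had 709, 632 and 900.0 in ctl and 463, 532 and 896 in dKO (log2 fold change -0.25, standard error 0.26, adjusted p = 0.796). Here dKO replicate 3 stood with the ctl libraries, and without it the value was -0.59 (unadjusted p = 0.0251). Without dKO replicate 1 it was -0.066 (unadjusted p = 0.797) and without ctl replicate 3 it was -0.090 (unadjusted p = 0.764). Hes5 had 97.5, 37.0 and 36.4 in ctl and 22.5, 55.9 and 33.8 in dKO (log2 fold change -0.60, standard error 0.56, adjusted p = 0.766), with ctl replicate 1 alone at the top. Without it the log2 fold change was 0.027. That library had the highest astrocyte, microglia and oligodendrocyte markers of the 6 as well (1164, 1681 and 4125 CPM), and their part was not tested.

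Of the Id genes, Id2 had 2327, 1639.9 and 1929.7 in ctl and 2077, 1397 and 1621 in dKO neuron libraries (log2 fold change -0.21, standard error 0.19, adjusted p = 0.763). The groups of Id2 overlapped over most of their range. Id4 had 948, 2202 and 1796 in ctl and 2590.1, 2221 and 2132 in dKO (log2 fold change 0.49, standard error 0.28, adjusted p = 0.630). A ctl library alone, replicate 2, reached into the dKO range, and without it the log2 fold change was 0.76 (unadjusted p = 0.0287). Without ctl replicate 1, the lowest library, it was 0.21 (unadjusted p = 0.266). Endothelial markers were lower in all dKO neuron libraries, with a sum of 7603 to 13977 CPM against 15162 to 17957 CPM in ctl, and 3 of the 10 had an unadjusted p under 0.05. Their lowest sum was in dKO replicate 1, the library with the least Jag1, Hey1 and Hes1, in which ependymal and choroid plexus markers reached 31199 CPM against 5071 to 14917 CPM in the other 5. Ependymal and choroid plexus markers had log2 fold changes over 0 for 7 of 9 genes (median 0.76), 5 of the 9 at an unadjusted p under 0.05. Those of neurons were over 0 for 9 of 10 genes (median 0.53), while 8 of 10 astrocyte markers (median -0.39, 3 of the 10 at that threshold) and 10 of 10 microglia markers (median -0.62) were under 0. Over all genes tested in neurons, 9% were at that threshold and 51.1% had a log2 fold change over 0. Markers of neuroblasts and progenitors were over 0 for 9 of 10 genes, 4 at that threshold, with sums of 1240 to 2069 CPM in ctl and 1929 to 2693 CPM in dKO, and the part of any of these cells in the values of the Notch and Id genes was not tested.

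**Figure D4:**
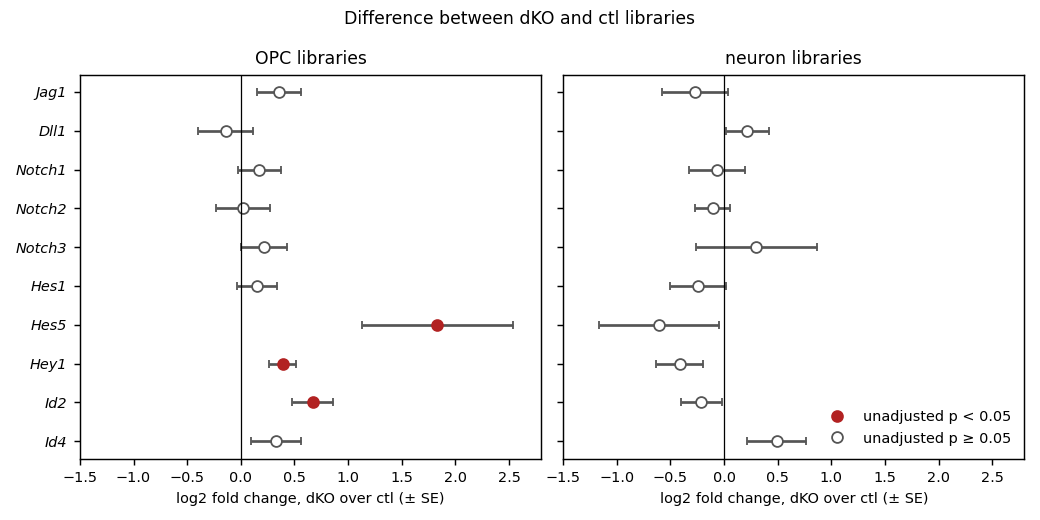
Log2 fold changes (dKO over ctl, x axis) of the Notch and Id genes in OPCs and neurons. Bars are 1 standard error, derived from the F statistic of edgeR. Hey1 and Id2 are over 0 in OPCs (0.39 and 0.67) and under 0 in neurons (-0.41 and -0.21), and Id4 is over 0 in both (0.33 and 0.49).

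Side by side, 8 of the 10 genes had opposite signs in the fractions, all but Id4 and Notch3. The share of all genes with opposite signs was not counted. Many of these signs turned when a single library was left out, for Dll1, Hes1, Notch1 and Notch2 in OPCs and for Hes5, Jag1, Notch1 and Notch2 in neurons. Hey1 and Id2 had log2 fold changes of 0.39 and 0.67 in OPCs and of -0.41 and -0.21 in neurons. Id4 had 0.33 and 0.49, and Notch3 had 0.22 and 0.30. The difference between the fractions was not tested.

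The wider pathway was read from 8 further lists with 95 genes, of which 90 were tested in OPCs. There 9 had an unadjusted p under 0.05 (10% against the 11.5% of all genes), 7 higher and 2 lower in dKO, and the median log2 fold change was 0.04. The list by list counts were 0 of 7 other ligands and receptors, 0 of 5 other Hes and Hey genes and 0 of 8 other Id genes and partners (edgeR), 1 of 15 processing genes, 2 of 13 turnover genes, 1 of 11 nuclear genes and 5 of 18 BMP genes. The total depended on single libraries, as 5 genes were found when ctl replicate 2 was dropped (6.34% of all genes) and 17 when dKO replicate 2 was dropped (13.3% of all genes). With the filter and model used throughout, edgeR gave an adjusted p under 0.05 for 0 of the 90. Lfng, which adds sugars to Notch receptors and so changes which ligand they answer to, had 249, 209.6 and 290.4 in ctl and 398, 562 and 559.5 in dKO OPC libraries (log2 fold change 1.02, standard error 0.18, adjusted p = 0.234). All dKO libraries of Lfng lay over all ctl libraries, and its adjusted p was 0.000942 with DESeq2 and 0.0241 in edgeR with no filter on low counts. Numbl, a relative of the Notch inhibitor Numb, had 421, 438 and 352 in ctl and 243, 264 and 200.1 in dKO (log2 fold change -0.77, standard error 0.16, adjusted p = 0.246), again without overlap, and 0.00722 with DESeq2. Neurl1a, a ubiquitin ligase acting on Notch ligands, had a log2 fold change of 0.66, and the corepressor Tle2 one of -0.40. Neither kept an unadjusted p under 0.05 with every library left out in turn, and Tle2 was at -0.22 (unadjusted p = 0.187) without ctl replicate 2.

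The BMP list held most of the other genes at an unadjusted p under 0.05 in OPCs. Of its 18 tested genes, 5 were higher and 0 lower at that threshold, against 6.27% and 5.27% of all genes tested. A log2 fold change over 0 was found for 16 of the 18, against 50.8% of all genes, and the median was 0.19. Smad6, an inhibitory SMAD that BMP itself induces, had 281, 179.8 and 265 in ctl and 538, 377 and 622 in dKO OPC libraries (log2 fold change 1.08, standard error 0.23, adjusted p = 0.246). Its adjusted p was 0.00565 with DESeq2, and in edgeR it was 0.0321 with no filter on low counts, 0.0473 with the replicate block and 0.0323 without dKO replicate 2. Bmpr1b, a type I BMP receptor, had 131, 173 and 139 in ctl and 193, 464 and 312 in dKO (log2 fold change 1.13, standard error 0.30, adjusted p = 0.292), and its adjusted p was 0.0341 with DESeq2. Both genes had every dKO library over every ctl library, as had Smad9, a BMP-responsive SMAD (log2 fold change 0.74, adjusted p = 0.313). Bmpr1b was highest in dKO replicate 2, the library with the highest astrocyte and lowest endothelial markers (5589 and 1115 CPM), in which Smad6 was the lowest of the dKO libraries, and the part of these cells was not tested. The other Id genes, Id1 and Id3, had log2 fold changes of 0.52 and 0.47 at unadjusted p = 0.0816 and 0.0571, and they are named here after their values were seen. Of 13 oligodendrocyte differentiation factors, 0 had an unadjusted p under 0.05 in edgeR, and the median log2 fold change was -0.12.

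In neurons, 87 of the 95 genes were tested and 15 had an unadjusted p under 0.05 (17.2% against 9% of all genes), 9 higher and 6 lower, and the median log2 fold change was -0.05. That split rested on single libraries, with 11 of 14 genes higher without ctl replicate 2 and 3 of 14 without ctl replicate 3. Without ctl replicate 1 the count was 5 of the pathway genes, against 5.45% of all genes, and without dKO replicate 3 it was 9, against 7.43%. Hes6, a bHLH factor of differentiating neuronal progenitors that counters Hes1, had 596, 834 and 635 in ctl and 1327, 914 and 1100.5 in dKO (log2 fold change 0.69, standard error 0.19, adjusted p = 0.521). Dtx3, of the Deltex family of Notch regulators, had a log2 fold change of 0.68, and both kept an unadjusted p under 0.05 with any library left out. The other neuron genes named here each lost it with at least 1 library left out. Dll4, the Notch ligand of endothelial cells, had a log2 fold change of -0.68, which was -0.43 without dKO replicate 1, and Id3 one of -0.37. The protease subunit and convertase genes Aph1c and Furin had 0.95 and 0.66. On the BMP side, Smad4 had 0.80, the receptor Bmpr2 -0.57 and the decoy receptor Bambi -0.45. Without ctl replicate 1, Smad4 had 0.53 and Bmpr2 -0.36. Of 12 oligodendrocyte differentiation factors, 11 were under 0 (median -0.78), with Enpp6 at -1.46 and Itpr2 at -0.67 at an unadjusted p under 0.05, and all 10 oligodendrocyte markers had log2 fold changes under 0, 1 of them at that threshold, with sums of 783 to 4125 CPM in ctl and 1190 to 1987 CPM in dKO. Endothelial markers summed to 15162 to 17957 CPM in ctl and 7603 to 13977 CPM in dKO. The part of endothelial cells, neuroblasts or oligodendrocytes in the values of these pathway genes, Dll4 and Hes6 among them, was not tested.

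**Figure D5:**
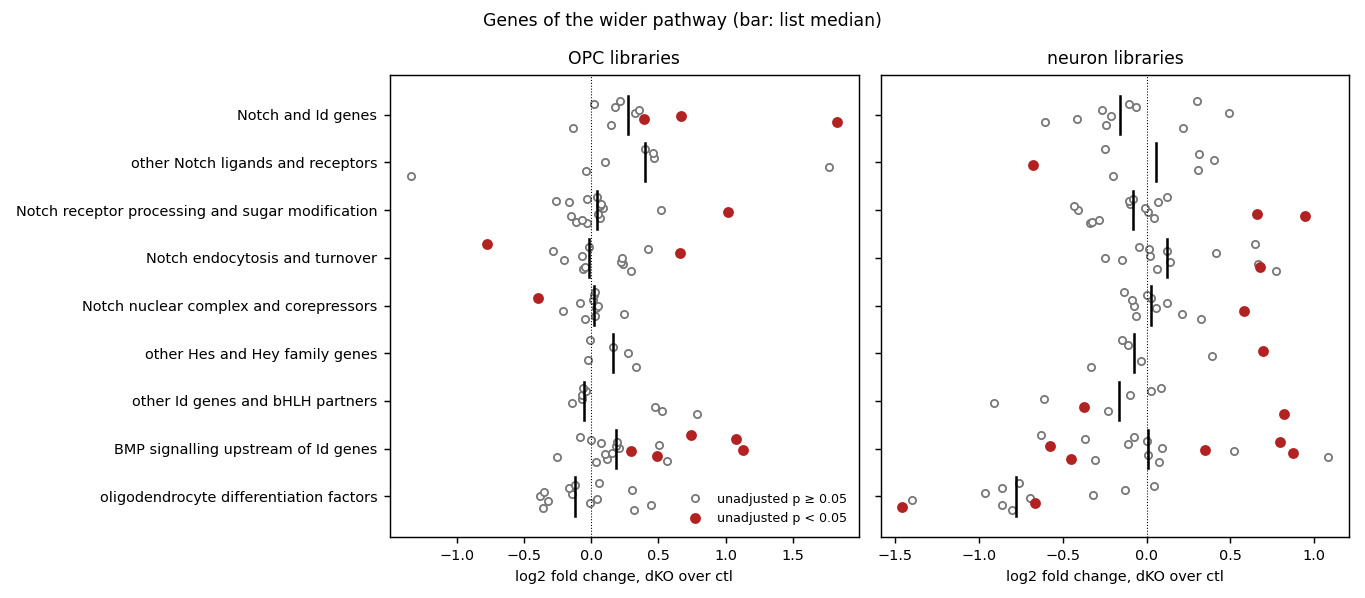
Log2 fold changes (dKO over ctl, x axis) of the Notch and Id genes and of the 8 further lists (rows), in OPCs at left and neurons at right. Each point is a gene, filled red at an unadjusted p under 0.05, and the black bar is the median of the list, which for the BMP list is 0.19 in OPCs and 0.01 in neurons.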

How the data were processed

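RNA-seq of OPC and neuron fractions from ctl and dKO mice was analysed, with 3 libraries per group. The OPC table the authors deposited holds unnormalized counts of reads on Ensembl genes, and FPKM values. Their methods name HISAT2 and featureCounts with GRCm38, while their processing notes name mm39, and 2.09% of the gene positions equal those of GENCODE M21 on GRCm38. Gene coordinates are those of the deposited table and were not converted or joined to GRCm38 sequences. For neurons, the authors deposited estimated counts and TPM values per RefSeq transcript. How these were made is not given in the sources used here. Estimated counts were summed per gene and rounded, and 17794 of 17918 genes were matched to symbols. The remaining genes made up 0.0441% of all counts. Levels in TPM were summed over the transcripts of a gene. The deposited tables also hold the authors' own fold changes and p-values, which were not used.

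Libraries were assigned to groups by their titles and column names. A gene was tested where its counts, normalized by TMM, averaged 10 or more in a fraction. The test of dKO against ctl was the quasi-likelihood F test of edgeR 4.0.16 in R 4.3.3. The model held genotype alone, and p-values were adjusted by Benjamini-Hochberg over all genes tested, at a threshold of 0.05. CPM values used the same TMM factors. The script was tested on simulated data. The smallest chi-square per gene between replicates was 15.9, well over sampling noise, and all libraries were kept. Total counts were 14935963 to 19812274 per OPC library and 15052892 to 16344601 per neuron library.

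The 10 genes, the 8 pathway lists and the 9 marker lists were chosen by hand with earlier results of these data known. Named with values were all 10 genes, Cacna1c and Cacna1d, and from each other list up to 3 genes with the smallest unadjusted p under 0.05, some of which are not reported here. Alternatives were DESeq2 1.42.0, RLE normalization, no filter, filterByExpr, a replicate block, single neuron transcripts and each library left out. Promoters are from RefSeq on GRCm38.p6, and motifs were searched on both strands in the 250 bases before the start.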

Additional observations from a re-analysis of the deposited data

How the results depend on the processing

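No adjusted p under 0.05 was found for the 10 genes in any alternative. In OPCs, 3 genes had an unadjusted p under 0.05 with DESeq2, with RLE normalization, without a filter and with filterByExpr, and 2 to 4 with each library left out (6.34% to 13.3% of all genes), when 2 to 4 genes did not overlap (23.2% to 30.5% of all genes). In neurons, 0 became 0 to 1 (5.45% to 11% of all genes) and, without overlap, 0 to 2 (22.8% to 29.5%). The other pathway genes at this threshold numbered 5 to 17 in OPCs and 5 to 14 in neurons with a library left out, and in OPCs 17 without a filter on low counts (9.15% of all genes). The cause was not tested.

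The replicate numbers do not pair the libraries. Deviations of same-numbered OPC libraries had correlations of -0.15, 0.19 and 0.17 and those of neuron libraries 0.17, -0.04 and -0.05. With the replicate block, 4 genes in OPCs and 0 in neurons had an unadjusted p under 0.05, and 16 and 14 other pathway genes, against 11.7% and 8.95% of all genes. Among all OPC genes tested, edgeR gave 27 an adjusted p under 0.05 with the block, against 1 in the main fit. Jag1 in OPCs had an unadjusted p of 0.0243 with the block, against 0.116 in the main fit.

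Leaving out single libraries turned the direction of several genes at high p. In OPCs, the log2 fold changes ranged from -0.45 to 0.071 for Dll1, from -0.031 to 0.38 for Hes1, from -0.078 to 0.33 for Notch1, from -0.21 to 0.31 for Notch2 and from -0.0036 to 0.42 for Notch3, and they stayed over 0 for Jag1 (0.16 to 0.53) and Id4 (0.098 to 0.54). In neurons, they ranged from -1.01 to 0.027 for Hes5, from -0.46 to 0.045 for Jag1, from -0.30 to 0.13 for Notch1, from -0.20 to 0.0081 for Notch2 and from -0.12 to 0.72 for Notch3, and kept their sign for Hes1 (-0.59 to -0.066), Hey1 (-0.56 to -0.23), Id2 (-0.38 to -0.072), Dll1 (0.14 to 0.34) and Id4 (0.21 to 0.76). The minor Hey1 transcript XM_006530053 gave 0.18, where the whole gene gave -0.41. With 3 libraries per group and a variation between libraries of 20.5% in OPCs and 27.7% in neurons, the power to detect small changes was not measured.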
